A study of Homo sapiens with 12 samples.

Results

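The interaction of oxygenation and PRMT5 inhibition was taken, gene by gene, as the onametostat effect in hypoxia minus the onametostat effect in normoxia, each a log2 fold change over DMSO. All 12 libraries of the series entered it, in a design of 2 treatments by 2 oxygen levels, and all 14698 genes of the count table were tested. T98-G cells, an established human glioblastoma line, were kept for 48 h with 1 µM onametostat at 1% oxygen (onametostat in hypoxia), with 0.1% DMSO at 1% oxygen (DMSO in hypoxia), with 1 µM onametostat at 20% oxygen (onametostat in normoxia) or with 0.1% DMSO at 20% oxygen (DMSO in normoxia). Each of these 4 conditions was sequenced from polyadenylated RNA in experiments numbered 1 to 3, so n = 3 per condition. The cells, the growth medium and the time were shared by all conditions, and 1 cell line at 1 dose and 1 time limits the groups as a model of a tumour. The p-values measure the spread between the 3 libraries of a condition, part of which may be technical.

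A negative interaction means that a gene was lower with onametostat in hypoxia than both single effects predict when they are added on the log2 scale, and a positive one that it was higher. The same number is also the hypoxia effect with onametostat minus the hypoxia effect with DMSO. Genes are called lower or higher for the interaction at an adjusted p under 0.05 in edgeR's quasi-likelihood test. Levels are CPM, counts scaled to the library's total and by TMM factors, the additive prediction is the level that onametostat in hypoxia would have without an interaction, and 12 libraries are meant unless 11 are named.

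PRMT5 is an enzyme that dimethylates arginines of histones, of the Sm proteins of the spliceosome and of many other proteins, and onametostat is a small-molecule inhibitor of it. Low oxygen stabilises the HIF transcription factors, because the oxygen-dependent EGLN hydroxylases no longer mark their alpha subunits for degradation. HIF binds the core motif ACGTG or GCGTG near genes of glucose uptake, glycolysis, mitophagy and cell stress. Making ribosomes in the nucleolus is among the costliest activities of a growing cell, and cells commonly lower it under low oxygen.

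Total counts ranged from 18154073 to 45977729 in the 9 libraries outside onametostat in hypoxia, and were 21049160, 7641280 and 403279 in experiments 1, 2 and 3 of onametostat in hypoxia. The last library had no count for 2978 genes, and 1 count in it was worth 2.48 CPM by its total. In it 10.9% of counts fell on 53 genes whose CPM was 4-fold or more above that of every other library, against 0.451% to 0.487% of the counts of the other libraries. The main counts of calls are therefore given with this library (12 libraries) and without it (11 libraries). The study lists more reads for experiment 3 than for experiment 2 of onametostat in hypoxia, so a smaller share of its reads became counts. In experiment 2, too, this share was smaller than in experiment 1, and the 11 libraries still hold experiment 2. Why these shares differed was not tested. Of the markers of glioma and mesenchymal cells, VIM had 1236 to 1493 CPM, CD44 1496 to 1923 CPM, MGMT 5.38 to 15.1 CPM and OLIG2 at most 2.69 CPM, while NES, SOX2, GFAP, S100B and CHI3L1 were not among the genes analysed here. Of haematopoietic markers 0 of 5 and of endothelial markers 1 of 3 were tested, namely VWF at 2.69 CPM or less. The epithelial keratins KRT8 and KRT18 summed to 145 to 165 CPM with onametostat in hypoxia, 186 to 212 CPM with DMSO in hypoxia, 106 to 111 CPM with onametostat in normoxia and 120 to 131 CPM with DMSO in normoxia.

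Most genes showed no interaction that these libraries could resolve, and the genes that did were mostly hypoxia-responsive genes whose response to hypoxia was not called once onametostat was present. With 12 libraries 73 of 14698 genes were called (0.497%), 40 lower (0.272%) and 33 higher (0.225%). With 11 libraries 183 genes were called (1.25%), 86 lower (0.585%) and 97 higher (0.66%). With library sizes alone in place of TMM factors the split was 42 lower and 7 higher with 12 libraries, and 118 lower and 56 higher with 11. At an unadjusted p under 0.05, 1937 genes passed with 12 libraries and 2198 with 11. The called interactions were small: their absolute log2 value ranged from 0.26 to 1.75 with a median of 0.37, and 3 of the 73 were above 1, all of them lower. On log2 CPM the interaction took 8.17% of the variance over genes and libraries of 1 condition differed by 57.7% of it, against 23.7% for treatment and 10.4% for oxygenation. Without experiment 3 of onametostat in hypoxia the interaction took 5.29%, the spread within conditions 24.2%, treatment 55.3% and oxygenation 14.4%. The spread between libraries alone also gives a single contrast such as the interaction some share of the variance. These shares are therefore a description and do not show that an interaction is present.

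The interval of the interaction shows how far additivity could be bounded. It leaves out the Poisson bound that the test puts on p, so it can be too narrow in genes of few counts. Its 95% interval lay within 1 log2 unit of 0 for 11899 genes (81.0%) with 12 libraries and for 11921 genes (81.1%) with 11. The median standard error was 0.12 over all genes, 0.08 for the 4300 genes whose log2 CPM averaged 5 to 7 and 0.47 for the 2927 genes under 1. In the lowest tier 16.5% of the genes had an interval within 1 log2 unit, against 99.7% of those from 5 to 7. Called genes were abundant ones, with a median average log2 CPM of 6.29 against 4.40 over all genes, so a 2-fold interaction was not detectable at this depth for most genes under 1.

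**Figure D1:**
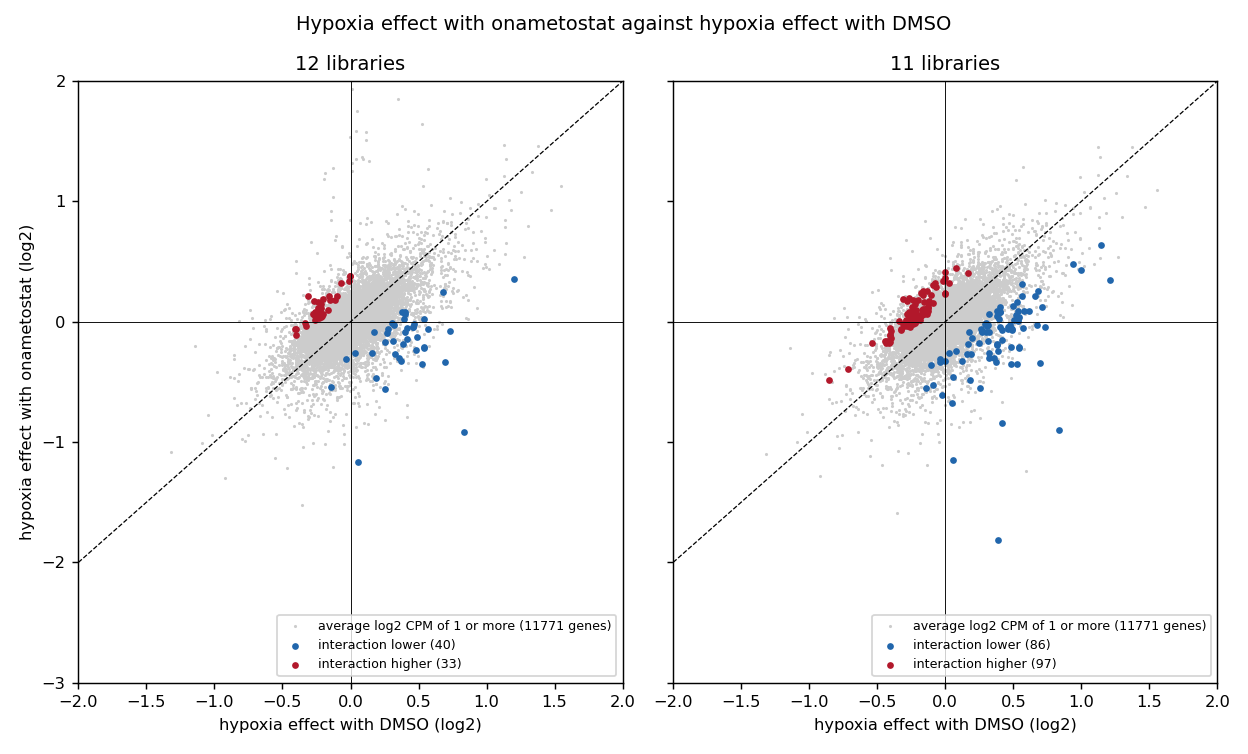
Hypoxia effect with onametostat (y axis, log2) against hypoxia effect with DMSO (x axis, log2), with 12 libraries on the left and 11 on the right. Grey points are genes whose log2 CPM averaged 1 or more, blue and red points are genes called lower and higher for the interaction, the dashed line marks equal effects, and 16 grey points on the left and 1 on the right lie outside the axes. The called genes lie off the dashed line near the horizontal zero line, the 40 blue ones on the left mostly where hypoxia with DMSO was positive and the 33 red ones mostly where it was negative.

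Seen from the oxygen side, most called genes had a response to hypoxia with DMSO that was smaller with onametostat, while a few had a called response with onametostat alone or of opposite sign. Of the 40 genes called lower, 35 were higher in hypoxia with DMSO at an adjusted p under 0.05 in edgeR's test, where 14.1% of all genes were higher and 13.9% lower. Of these 35 genes, 29 were not called for hypoxia with onametostat, 1 was still higher and 5 were lower, and with onametostat 7.69% of all genes were higher in hypoxia and 6.16% lower. The median hypoxia effect of the 40 genes was -0.13 with onametostat and 0.40 with DMSO. Of the 33 genes called higher, 29 were lower in hypoxia with DMSO, and of these 24 were not called with onametostat and 5 were higher. Their median hypoxia effect was 0.09 with onametostat and -0.23 with DMSO. These effects share libraries with the interaction, so the counts describe what it consists of and do not add evidence for it. The other 5 lower and 4 higher genes had no called hypoxia effect with DMSO but a called one with onametostat. These were DEPP1, TCAF2, PLIN2, ITGB5 and RTL6, which were lower in hypoxia with onametostat, and THRAP3, DDX39A, CAPN15 and ATP5F1D, which were higher. With 11 libraries 71 of the 86 lower genes were higher in hypoxia with DMSO and 84 of the 97 higher genes were lower, while 13 and 12 had a called hypoxia effect with onametostat alone.

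To show the sequence context of these genes, 250 bases before the RefSeq start (GRCh38.p14) are given for 2 HIF targets called lower, DDIT4 (chr10:72273674-72273923, plus strand) and PPP1R3C (chr10:91633072-91633321, minus strand), and for THRAP3 (chr1:36224193-36224442, plus strand), which was called higher. They were chosen because each holds at least 3 matches of the HIF core motif, where CACGTG counts as 2, with 1 on each strand. Chosen in this way, they do not represent the called genes, whose shares with the motif follow. Capitals mark ACGTG or GCGTG, or their reverse complements CACGT and CACGC, and where CACGTG is in capitals it holds the motif on both strands and is also the E-box that MYC and its relatives bind.
DDIT4: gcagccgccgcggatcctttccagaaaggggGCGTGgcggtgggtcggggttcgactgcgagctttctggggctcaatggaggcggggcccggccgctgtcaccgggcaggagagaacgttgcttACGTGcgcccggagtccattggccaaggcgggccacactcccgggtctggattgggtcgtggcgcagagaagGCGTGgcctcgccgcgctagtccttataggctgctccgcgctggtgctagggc
PPP1R3C: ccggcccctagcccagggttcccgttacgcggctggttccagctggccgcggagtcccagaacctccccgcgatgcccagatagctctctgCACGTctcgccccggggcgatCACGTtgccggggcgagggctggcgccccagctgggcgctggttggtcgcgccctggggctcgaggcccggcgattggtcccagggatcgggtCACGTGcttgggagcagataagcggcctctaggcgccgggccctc
THRAP3: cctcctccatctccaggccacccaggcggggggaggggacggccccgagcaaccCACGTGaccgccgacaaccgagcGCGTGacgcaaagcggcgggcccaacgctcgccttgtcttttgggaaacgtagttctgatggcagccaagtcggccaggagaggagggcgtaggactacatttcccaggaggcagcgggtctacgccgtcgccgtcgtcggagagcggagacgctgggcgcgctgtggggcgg

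In promoters of this length, ACGTG or GCGTG on either strand stood in 6105 of the 10650 tested genes with a RefSeq promoter (57.3%). Among genes with such a promoter it stood in 14 of 27 called lower (51.9%), 17 of 27 called higher (63.0%), 24 of 32 HIF targets (75.0%) and 58 of 82 nucleolar genes (70.7%). With 11 libraries it stood in 28 of 63 genes called lower (44.4%) and 49 of 80 called higher (61.3%). CACGTG stood in 939 of the 10650 promoters (8.82%), 2 of the 27 lower genes (7.41%), 3 of the 27 higher genes (11.1%), 7 of the 32 HIF targets (21.9%) and 12 of the 82 nucleolar genes (14.6%). A match of letters is a description and not a binding site, and motifs of HIF can lie outside this window.

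A few HIF targets were called lower for the interaction, and most members of the list had negative estimates. Of 39 measured genes of a list of 40, 5 were called lower with 12 libraries and 9 with 11, beside 0.272% and 0.585% of all genes. With either set 35 of 39 interactions were negative, beside 7124 of all 14698 with 12 libraries, and the list's median was -0.19, against 0.01 over all genes. With library sizes alone 36 were negative with 12 libraries and 37 with 11. The list was chosen with earlier results of these data known, so its counts are a description. DMSO-treated cells showed a modest response to hypoxia in this list: 1 gene was higher and 14 were lower in hypoxia with onametostat, against 13 higher and 6 lower in hypoxia with DMSO. Over all genes 7.69% were higher and 6.16% lower with onametostat, and 14.1% and 13.9% with DMSO. The list's 6 genes lower with DMSO were thus near the share over all genes. VEGFA, the angiogenic growth factor, was among those lower in hypoxia, with 48.8, 55.1 and 45.7 CPM with onametostat in hypoxia and 81.9, 76.7 and 78.4 CPM with onametostat in normoxia, against 39.0, 41.8 and 35.3 CPM with DMSO in hypoxia and 53.9, 52.96 and 53.4 CPM with DMSO in normoxia. Its hypoxia effect was -0.62 ± 0.07 (SE) with onametostat and -0.47 ± 0.06 with DMSO, and its interaction of -0.16 ± 0.09 was not called (adjusted p = 0.454).

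NDRG1 (chr8:133237175-133302022, GRCh38), a differentiation and stress gene long used as a marker of hypoxia, carried the interaction with the smallest p. It had 609.6, 653 and 589 CPM with onametostat in hypoxia, against 920.1, 920.3 and 834 CPM with DMSO in hypoxia, so the onametostat libraries all lay below the DMSO libraries. In normoxia the order was the opposite, with 723, 783 and 677 CPM with onametostat against 619, 649.6 and 646 CPM with DMSO and again no overlap. The onametostat effect was -0.52 ± 0.06 (SE) in hypoxia and 0.19 ± 0.06 in normoxia, both called, which makes NDRG1 a reversed effect. The additive prediction was 1017 CPM and the measured mean was 60.7% of it. The interaction was -0.71 ± 0.08 (95% interval -0.88 to -0.54, adjusted p = 0.00141), and -0.69 with 11 libraries (adjusted p = 1.46e-04). It was called under 21 of 21 alternatives, the 12 that leave out a library among them. A further 1 of the 21, the filter of filterByExpr, removed no gene and so repeats the main fit.

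DDIT4 (chr10:72273919-72276036), an inhibitor of mTORC1 signalling induced by hypoxia and other stresses, had 102, 108 and 110.3 CPM with onametostat in hypoxia, against 112, 117 and 113 CPM with DMSO in hypoxia. In normoxia it had 107, 116 and 100.1 CPM with onametostat, against 77.3, 81.3 and 90.3 CPM with DMSO. DMSO in normoxia stood apart below the rest, and onametostat in hypoxia lay just below DMSO in hypoxia. Each single agent thus raised DDIT4, by 0.38 ± 0.06 for onametostat in normoxia and 0.46 ± 0.05 for hypoxia with DMSO, and the combination was 72.1% of its additive prediction of 148 CPM. Its interaction was -0.50 ± 0.08 (adjusted p = 0.026), and its promoter is the first of those printed above.

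PPP1R3C (chr10:91628442-91633071), a glycogen-targeting subunit of protein phosphatase 1, was low throughout, at 6.61, 9.43 and 5.38 CPM with onametostat in hypoxia, 13.4, 15.6 and 12.3 CPM with DMSO in hypoxia, 9.79, 9.82 and 8.68 CPM with onametostat in normoxia and 8.40, 9.19 and 7.73 CPM with DMSO in normoxia. Onametostat changed it by -0.88 ± 0.14 in hypoxia and by 0.15 ± 0.11 in normoxia, and the normoxic change was not called. The interaction of -1.03 ± 0.18 (adjusted p = 0.026) put it at 46.4% of the prediction. SLC2A3, the glucose transporter GLUT3, had 24.6, 27.9 and 18.8 CPM with onametostat in hypoxia and 23.2, 25.7 and 24.5 CPM with DMSO in hypoxia, which overlap. It had 30.0, 30.9 and 26.5 CPM with onametostat in normoxia and 18.1, 19.4 and 18.8 CPM with DMSO in normoxia, which do not, and its interaction was -0.57 ± 0.11 (adjusted p = 0.0368). Reads of SLC2A3 can be shared with its near-identical neighbour SLC2A14, so its level is uncertain. DEPP1, a FOXO-regulated gene of autophagy, had 2.80, 4.38 and 0 CPM with onametostat in hypoxia, where the 0 is a count of 0 in the library of 403279 counts, and 5.93, 6.84 and 4.91 CPM with DMSO in hypoxia. With oxygen at 20% it had 7.74, 7.60 and 6.17 CPM with onametostat and 6.05, 5.55 and 5.42 CPM with DMSO, and its interaction was -1.22 ± 0.25 (adjusted p = 0.0413), or -1.20 with 11 libraries.

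The HIF targets called with 11 libraries alone were EGLN3, BNIP3L, MXI1 and PFKFB4. EGLN3, an oxygen-sensing hydroxylase of HIF, had an interaction of -0.36 (adjusted p = 0.0215) with 11 libraries and of -0.38 (adjusted p = 0.0573) with 12. BNIP3L, a receptor of mitophagy, had -0.38 and -0.41, MXI1, a repressor that opposes MYC, had -0.52 and -0.53, and PFKFB4, a regulator of glycolysis, had -0.45 and -0.46 with 11 and 12 libraries. In the library of 403279 counts EGLN3, BNIP3L, MXI1 and PFKFB4 were each below the other libraries of onametostat in hypoxia, for example EGLN3 with 47.3, 49.1 and 29.6 CPM. CA9, the carbonic anhydrase often used as a marker of hypoxia, had an interaction of -0.68 ± 0.22 that was not called (adjusted p = 0.174), and SLC2A1, the main glucose transporter, had -0.14 ± 0.07 (adjusted p = 0.377). With 12 libraries STC2, P4HA1, CA12 and HIF1A had the list's positive interactions, the last with 0.17 ± 0.07 (adjusted p = 0.331).

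Genes outside that list were called lower as well. IGFBP4 (chr17:40443450-40457725), a binding protein that holds insulin-like growth factors away from their receptor, had 100.2, 110.0 and 108 CPM with onametostat in hypoxia, against 134, 138 and 136 CPM with DMSO in hypoxia. Its normoxic levels were 106, 114 and 106 CPM with onametostat and 102, 103 and 99.98 CPM with DMSO. Its induction by hypoxia was 0.41 ± 0.04 with DMSO, while with onametostat the effect was -0.05 ± 0.05 and not called. The interaction was -0.46 ± 0.06 (adjusted p = 0.00592) and was called under 19 of 21 alternatives, the most after NDRG1. IGFBP3 of the same family had 873, 1023 and 799 CPM with onametostat in hypoxia, against 1495, 1744 and 1557 CPM with DMSO in hypoxia, and 981, 1073 and 909 CPM with onametostat in normoxia, against 1132, 1165 and 1121 CPM with DMSO in normoxia. In both pairs the onametostat libraries lay below, and the distance was larger in hypoxia (-0.82 ± 0.08 against -0.21 ± 0.08, interaction -0.61, adjusted p = 0.026).

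STC1, a secreted glycoprotein hormone induced by hypoxia, had 160.3, 174 and 156 CPM with onametostat in hypoxia, 182, 166 and 157 CPM with DMSO in hypoxia, 157, 174 and 157 CPM with onametostat in normoxia and 113, 119 and 115 CPM with DMSO in normoxia. The first 3 conditions overlapped and DMSO in normoxia lay below them. Hypoxia raised it by 0.54 ± 0.05 with DMSO and onametostat by 0.49 ± 0.06 in normoxia, and the combination fell short of the prediction by an interaction of -0.51 ± 0.08 (adjusted p = 0.026). MT2A, a metal-binding metallothionein whose reads can be shared with its paralogs, was likewise lowest with DMSO in normoxia, with 225, 243 and 188 CPM with onametostat in hypoxia, 201, 221 and 221 CPM with DMSO in hypoxia, 251, 233 and 238 CPM with onametostat in normoxia and 158, 165 and 164 CPM with DMSO in normoxia. Its interaction was -0.48 ± 0.08 (adjusted p = 0.026). CCN4, a matricellular Wnt-induced protein encoded near NDRG1, had an interaction of -0.34 ± 0.06 (adjusted p = 0.026), with an onametostat effect of -0.81 in hypoxia and -0.46 in normoxia.

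**Figure D2:**
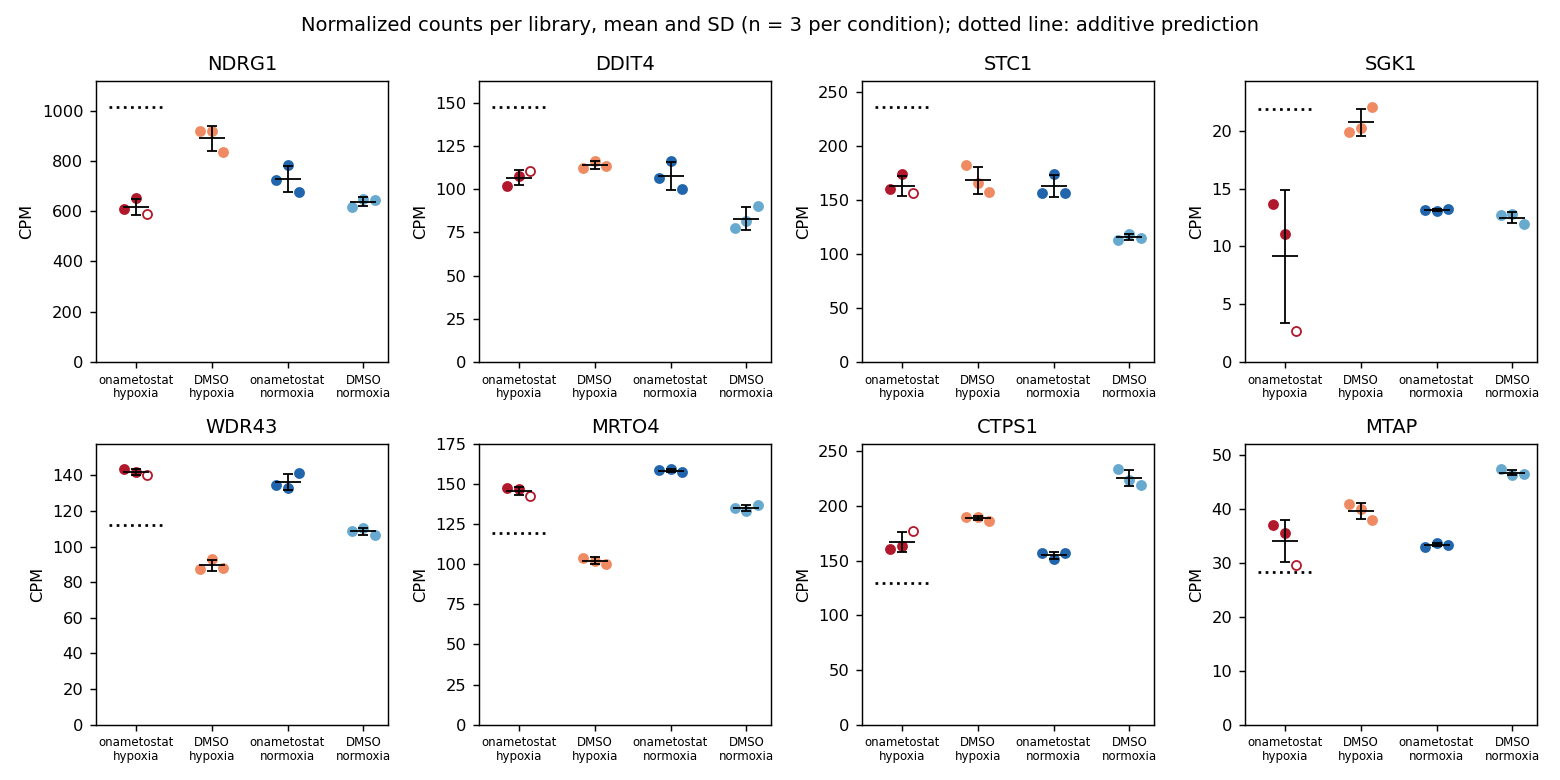
CPM with TMM scaling (y axis, from 0) of 4 genes called lower (top) and 4 called higher (bottom) in every library, by condition, with the mean and SD of 3 libraries as bars and the additive prediction for onametostat in hypoxia as a dotted line. The open circle is experiment 3 of onametostat in hypoxia, the library of 403279 counts. Top-row libraries of onametostat in hypoxia all lie below their dotted line (NDRG1 at 589 to 653 CPM under 1017 CPM), and bottom-row libraries all lie above it (WDR43 at 139.9 to 143 CPM over 112 CPM).

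SGK1, LMNA and HEY1 were called lower too. SGK1 (chr6:134169248-134318112), a kinase induced by glucocorticoids and stress, had 13.7, 11.0 and 2.69 CPM with onametostat in hypoxia, the last value being 1 count, against 19.9, 20.2 and 22.1 CPM with DMSO in hypoxia. The normoxic values were 13.2, 13.1 and 13.2 CPM with onametostat, against 12.8, 12.8 and 11.9 CPM with DMSO. Hypoxia thus raised SGK1 with DMSO alone (0.73 ± 0.09, against -0.07 ± 0.11 with onametostat), with an interaction of -0.81 (adjusted p = 0.026) and of -0.78 with 11 libraries. LMNA, which encodes the lamins A and C of the nuclear envelope, had 1002, 1041 and 1017 CPM with onametostat in hypoxia, against 1123, 1356 and 1316 CPM with DMSO in hypoxia, and 1293, 1463 and 1011 CPM with onametostat in normoxia, against 962, 1032 and 970.2 CPM with DMSO in normoxia. The first pair did not overlap and the last pair did, and its interaction was -0.66 ± 0.13 (adjusted p = 0.0377). HEY1, a repressor downstream of Notch, was lowered further by onametostat in hypoxia (-0.80) than in normoxia (-0.24), with an interaction of -0.56 ± 0.11 (adjusted p = 0.0402).

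BMF (chr15:40087890-40108892), a BH3-only protein that promotes apoptosis, had a hypoxia effect of 1.20 ± 0.10 with DMSO and of 0.36 ± 0.16 with onametostat, which was not called. It had 7.81, 8.10 and 8.07 CPM with onametostat in hypoxia, against 31.9, 34.8 and 43.1 CPM with DMSO in hypoxia. With oxygen at 20% it had 5.97, 6.46 and 5.94 CPM with onametostat, against 15.1, 15.2 and 17.9 CPM with DMSO, so onametostat lowered it at both oxygen levels without overlap. The effect was -2.22 ± 0.14 in hypoxia and -1.37 ± 0.11 in normoxia, an amplified effect with an interaction of -0.84 ± 0.18 (adjusted p = 0.0486). HOTAIR, a long noncoding RNA of the HOXC cluster, was amplified in the same way, with 3.96, 3.06 and 2.69 CPM with onametostat in hypoxia, 11.2, 11.9 and 11.5 CPM with DMSO in hypoxia, 5.48, 5.23 and 5.61 CPM with onametostat in normoxia and 9.75, 9.24 and 10.2 CPM with DMSO in normoxia. The last value with onametostat in hypoxia is 1 count for HOTAIR and 3 counts for BMF. With 11 libraries the interaction was -0.81 for HOTAIR and -0.86 for BMF. With 12 libraries that of HOTAIR was -0.81 ± 0.15 (adjusted p = 0.0291), and it was called under 10 of 20 alternatives. Counts of HOTAIR can include reads of an antisense partner, which the counting did not tell apart by strand.

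Of the collagens, integrins and matrix remodelling genes, LAMB1 and ITGB5 were called lower among 43 measured genes, and ITGA8 with 11 libraries, beside 0.272% and 0.585% of all genes. LAMB1, a laminin chain of the basement membrane, had 899, 912 and 882 CPM with onametostat in hypoxia and 1662, 1567 and 1673 CPM with DMSO in hypoxia. Its normoxic levels were 817, 891 and 847 CPM with onametostat and 1240.5, 1241 and 1288 CPM with DMSO, and the onametostat effect was -0.86 in hypoxia and -0.56 in normoxia (interaction -0.30 ± 0.06, adjusted p = 0.0338). ITGB5, an integrin subunit that binds vitronectin, was raised by onametostat in normoxia (0.33 ± 0.03) and changed by 0.06 ± 0.04 in hypoxia, with an interaction of -0.27 (adjusted p = 0.0338). ITGA8, an integrin subunit lowered by onametostat at both oxygen levels, had an interaction of -0.57 with 11 libraries (adjusted p = 0.0353) and of -0.54 with 12 (adjusted p = 0.102). The cell-surface genes SEMA4B, a semaphorin, and ANTXR1, a collagen-binding receptor, had interactions of -0.48 ± 0.07 (adjusted p = 0.026) and -0.33 ± 0.06 (adjusted p = 0.0338). SH3PXD2A, a scaffold of invadopodia, had -0.50 ± 0.09 (adjusted p = 0.026).

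Further genes called lower were spread over other functions. PLIN2, which coats lipid droplets, was raised by onametostat at both oxygen levels, by 0.31 in hypoxia and 0.71 in normoxia, so its effect was smaller in hypoxia (interaction -0.40 ± 0.08, adjusted p = 0.046). TCAF2 was likewise raised at both, by 0.47 and 1.12, with an interaction of -0.65 ± 0.14 (adjusted p = 0.0462). IL2RB, an interleukin receptor subunit, had an onametostat effect of 0.00 in hypoxia and 0.75 in normoxia and an interaction of -0.75 ± 0.15 (adjusted p = 0.037). C4orf3 had -0.42 and TP53I11 -0.42. PGK1P1 is a processed pseudogene whose reads may come from PGK1, its level was 0.959 to 1.11 CPM with DMSO in hypoxia, and the interaction of -1.75 ± 0.37 rests on few counts. In order of size, a further 13 were C16orf54 (-0.87), TTC30B (-0.70), C14orf132 (-0.63), ATOSB (-0.60), PBXIP1 (-0.48), SMIM3 (-0.44), AFDN (-0.37), MLLT11 (-0.36), MEF2A (-0.33), BLCAP (-0.32), PTPRU (-0.31), RTL6 (-0.29) and CNOT8 (-0.26).

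With 11 libraries alone, further regulators were called lower. KLF9, a transcription factor induced by glucocorticoids, had 45.5, 49.8 and 26.9 CPM with onametostat in hypoxia, against 62.2, 71.4 and 75.7 CPM with DMSO in hypoxia, and 43.5, 46.3 and 41.9 CPM with onametostat in normoxia, against 47.4, 45.9 and 47.9 CPM with DMSO in normoxia. DMSO in hypoxia stood above the rest, which overlapped, and the interaction was -0.49 (adjusted p = 0.0167). HBP1 and CCNG2, a repressor and a cyclin that restrain the cell cycle, had -0.56 (adjusted p = 0.0182) and -0.53 (adjusted p = 0.0374). The 5 called interactions above 1 in absolute value with 11 libraries were all lower, in DYNC1I1 (-2.20), PGK1P1 (-1.74), CYRIA (-1.26), DEPP1 (-1.20) and PPP1R3C (-1.04). DYNC1I1, a dynein intermediate chain, was low, with 0.193, 0.266 and 0 CPM with onametostat in hypoxia, 1.66, 1.32 and 1.63 CPM with DMSO in hypoxia, 0.885, 0.781 and 0.603 CPM with onametostat in normoxia and 0.914, 1.21 and 1.31 CPM with DMSO in normoxia, and its last value with onametostat in hypoxia is a count of 0.

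Of the 40 lower genes, onametostat lowered 13 at both oxygen levels, each by more in hypoxia, and raised 2 at both, each by less in hypoxia. It had called effects of opposite sign on 5 (NDRG1, DEPP1, LMNA, SH3PXD2A and PGK1P1), was called in normoxia alone for 12 and in hypoxia alone for 8, beside 56.5% of all genes called for onametostat in normoxia and 52% in hypoxia. The median onametostat effect of the 40 was -0.36 in hypoxia and 0.13 in normoxia. With 11 libraries onametostat lowered 39 of the 86 genes at both oxygen levels and raised 6 at both, had called effects of opposite sign on 11, and was called in normoxia alone for 14 and in hypoxia alone for 16. Their median onametostat effect was -0.61 in hypoxia and -0.02 in normoxia, so the sign of the normoxic median turned.

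Of the 33 genes called higher, 10 were factors of nucleolar ribosome biogenesis. Of 97 such genes, a list put together after the calls had been seen, 10 were called higher with 12 libraries and 23 with 11, beside 0.225% and 0.66% of all genes. The interaction was positive for 95 of 97 genes with 12 libraries and 93 with 11, with a median of 0.18. With library sizes alone 3 genes were called, 89 interactions were positive and the median was 0.14, so the direction did not turn. In hypoxia 3 genes of the list were higher and 9 lower with onametostat, against 0 higher and 70 lower with DMSO. Over all genes these shares were 7.69% and 6.16% with onametostat, and 14.1% and 13.9% with DMSO. Onametostat raised 74 and lowered 7 of the 97 in hypoxia, against 60 raised and 14 lowered in normoxia. Of all 14698 genes it raised 3761 and lowered 3884 in hypoxia, and 3991 and 4311 in normoxia. Because the list followed from the calls, these counts describe it and test nothing.

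WDR43 (chr2:28894667-28948219), a factor of the small-subunit processome that ties ribosomal RNA synthesis to its processing, had 143, 142 and 139.9 CPM with onametostat in hypoxia, against 87.1, 93.0 and 88.1 CPM with DMSO in hypoxia. In normoxia it had 135, 133 and 142 CPM with onametostat, against 109, 110.4 and 106 CPM with DMSO. Neither pair overlapped, and the effect was 0.67 ± 0.04 in hypoxia and 0.33 ± 0.04 in normoxia. The interaction of 0.34 ± 0.06 (95% interval 0.22 to 0.46, adjusted p = 0.026) put onametostat in hypoxia at 126% of the additive prediction of 112 CPM. MRTO4, which helps to assemble the large subunit, had 147, 147 and 143 CPM with onametostat in hypoxia, 104, 102 and 100.1 CPM with DMSO in hypoxia, 159, 159 and 157 CPM with onametostat in normoxia and 135, 133 and 137 CPM with DMSO in normoxia. The conditions did not overlap, onametostat in hypoxia lay between the normoxic ones, and the interaction was 0.29 ± 0.05 (adjusted p = 0.026).

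The other nucleolar genes called with 12 libraries were DDX21, NOLC1, RRP1, RBM28, GRWD1, POLR1E, RRS1 and NOL6. DDX21, a helicase of ribosomal RNA transcription and processing, had 442, 422 and 447 CPM with onametostat in hypoxia, against 311, 292 and 291 CPM with DMSO in hypoxia, and 414, 412 and 437 CPM with onametostat in normoxia, against 368, 361 and 344 CPM with DMSO in normoxia. Onametostat raised it in both pairs without overlap, and by more in hypoxia (interaction 0.31 ± 0.06, adjusted p = 0.0413). NOLC1, a chaperone of small nucleolar ribonucleoproteins, had an interaction of 0.27 ± 0.06 (adjusted p = 0.0422). RRP1, RBM28 and GRWD1, factors of the large subunit, had 0.26, 0.33 and 0.29. POLR1E, a subunit of RNA polymerase I, had an onametostat effect of 0.31 ± 0.05 in hypoxia and -0.04 ± 0.04 in normoxia, with an interaction of 0.34 (adjusted p = 0.0338).

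RRS1 and NOL6 differed from these in the sign of their onametostat effects. RRS1, a factor of large-subunit assembly, had 43.8, 41.3 and 43.0 CPM with onametostat in hypoxia, against 38.03, 37.8 and 37.5 CPM with DMSO in hypoxia, and 43.5, 43.8 and 46.4 CPM with onametostat in normoxia, against 49.9, 50.2 and 49.9 CPM with DMSO in normoxia. It was thus raised in hypoxia (0.18 ± 0.05) and lowered in normoxia (-0.17 ± 0.04), a reversed effect with an interaction of 0.35 (adjusted p = 0.0347). NOL6, a small-subunit processome factor, was lowered at both oxygen levels, by -0.14 in hypoxia and -0.43 in normoxia, a smaller effect in hypoxia (interaction 0.30 ± 0.06, adjusted p = 0.0442). Among the 13 called with 11 libraries alone were NCL, NOP56, NOP16, TCOF1, DKC1 and DIMT1, with interactions of 0.23, 0.30, 0.29, 0.24, 0.22 and 0.46. NSA2 (-0.05) and NOP10 (-0.06) were the list's only negative interactions with 12 libraries.

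CTPS1, ATIC and SLC19A1, of nucleotide synthesis and folate uptake, were called higher too. CTPS1 (chr1:40979300-41012565), which makes CTP, had 161, 163 and 178 CPM with onametostat in hypoxia, against 189.6, 189.7 and 187 CPM with DMSO in hypoxia. In normoxia it had 157, 151 and 157 CPM with onametostat, against 234, 224 and 219 CPM with DMSO. Onametostat lowered it in both pairs without overlap, by less in hypoxia (-0.21 ± 0.04) than in normoxia (-0.54 ± 0.04), with an interaction of 0.34 ± 0.06 (adjusted p = 0.026). ATIC, which completes purine synthesis to IMP, was likewise lowered by less in hypoxia, with an effect of -0.25 in hypoxia and -0.62 in normoxia (interaction 0.37 ± 0.07, adjusted p = 0.026). SLC19A1, the reduced folate carrier, had 74.1, 67.9 and 67.3 CPM with onametostat in hypoxia, 82.7, 72.4 and 76.9 CPM with DMSO in hypoxia, 67.7, 64.1 and 62.5 CPM with onametostat in normoxia and 88.2, 89.9 and 91.2 CPM with DMSO in normoxia, so that the hypoxic pair overlapped and the normoxic pair did not (interaction 0.36, adjusted p = 0.0338). With 11 libraries UMPS, of pyrimidine synthesis, and ODC1, of polyamine synthesis, had 0.30 (adjusted p = 0.0427) and 0.37 (adjusted p = 0.0243).

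MTAP (chr9:21802636-21937651) recycles methylthioadenosine, a byproduct of polyamine synthesis that itself inhibits PRMT5. It had 37.1, 35.6 and 29.6 CPM with onametostat in hypoxia, against 40.9, 40.1 and 37.9 CPM with DMSO in hypoxia, and 33.1, 33.8 and 33.5 CPM with onametostat in normoxia, against 47.4, 46.5 and 46.6 CPM with DMSO in normoxia. Both pairs stood apart, and its effect was -0.13 ± 0.06 in hypoxia, which was not called, and -0.49 ± 0.05 in normoxia, with an interaction of 0.36 ± 0.08 (adjusted p = 0.0465). PRMT5 itself was raised by onametostat at both levels, with 75.1, 68.3 and 72.6 CPM with onametostat in hypoxia, 56.2, 58.1 and 59.1 CPM with DMSO in hypoxia, 84.9, 89.6 and 87.9 CPM with onametostat in normoxia and 64.8, 64.8 and 65.9 CPM with DMSO in normoxia. Its interaction of -0.10 (95% interval -0.22 to 0.02, adjusted p = 0.454) was not called and its interval bounds it well under 1 log2 unit. Of the 13 measured methylosome and PRMT genes MTAP was the 1 called with either set of libraries.

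Several other higher genes had effects of opposite sign or a single called effect. THRAP3 (chr1:36224432-36305357), a splicing and DNA damage factor, had 303, 299 and 261 CPM with onametostat in hypoxia and 234, 219.6 and 227 CPM with DMSO in hypoxia. In normoxia it had 219, 226 and 234 CPM with onametostat and 226, 229 and 227 CPM with DMSO, so onametostat in hypoxia stood above the other 3 conditions, which overlapped each other. Its interaction was 0.38 ± 0.07 (adjusted p = 0.026), and 0.41 (adjusted p = 9.36e-04) with 11 libraries. HJURP, the chaperone that loads the centromeric histone CENP-A, and E2F3, a cell cycle transcription factor, were raised by onametostat in hypoxia (0.18 and 0.20) and lowered in normoxia (-0.14 and -0.12). Their interactions were 0.32 ± 0.05 (adjusted p = 0.026) and 0.33 ± 0.06 (adjusted p = 0.0316). SOD2, the mitochondrial superoxide dismutase, was raised at both levels and by more in hypoxia (0.71 against 0.38, interaction 0.33 ± 0.06, adjusted p = 0.0291).

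Among genes that onametostat lowered by less in hypoxia were ATP5F1D, a subunit of ATP synthase (-0.28 against -0.64, interaction 0.35), and NPTX1, a secreted neuronal pentraxin (-0.80 against -1.19, interaction 0.39). DIO2, which activates thyroid hormone, had 164, 190.0 and 188 CPM with onametostat in hypoxia, 205, 202 and 161 CPM with DMSO in hypoxia, 160.5, 152 and 149 CPM with onametostat in normoxia and 245, 237 and 223 CPM with DMSO in normoxia. Its libraries overlapped in hypoxia and stood apart in normoxia, and its interaction of 0.52 ± 0.11 (adjusted p = 0.0446) was the largest of the named higher genes. CEMIP, a hyaluronan-degrading protein, had 0.44, CLUH, a regulator of mitochondrial mRNAs, 0.40, DDX39A, an mRNA export helicase, 0.39, CAPN15 0.40, CHERP 0.26 and ZWILCH, a kinetochore protein, 0.29. The other 6 genes called higher were PGAM5 (0.33), QTRT2 (0.31), PITX1 (0.29), PKP4 (0.27), SPCS3 (0.27) and COA7 (0.26). Of all 33, onametostat raised 13 at both oxygen levels and lowered 5 at both, had called effects of opposite sign on 4 (RRS1, HJURP, E2F3 and PITX1), and was called in normoxia alone for 6 and in hypoxia alone for 5. With 11 libraries these counts were 33, 17, 6, 17 and 24 of 97.

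Other lists held few called genes. Beside them, 1937 of all 14698 genes had an unadjusted p under 0.05 with 12 libraries and 2198 with 11. Called by the quasi-likelihood test were 0.497% and 1.25% of all genes. Counts of a list near these shares say nothing particular about the list. None of the 55 splicing genes was called by edgeR's quasi-likelihood test with 12 libraries, and 16 had an unadjusted p under 0.05. With these libraries edgeR's robust fit called 3, DESeq2 5 and limma voom 6. With 11 libraries the quasi-likelihood test called TRA2B, SRSF1, SRSF10 and PTBP1 higher, with interactions from 0.20 to 0.24. The interaction was positive for 49 of the 55 and the median was 0.10. Of the 37 genes of DNA replication and mitosis, edgeR's quasi-likelihood test called 0 with 12 libraries, and 16 had an unadjusted p under 0.05. With these libraries edgeR's robust fit called 2, DESeq2 2 and limma voom 3. With 11 libraries the quasi-likelihood test called 3, RRM2 (0.23), MCM4 (0.22) and PCNA (0.22), all lowered by onametostat and by less in hypoxia. With 11 libraries single genes were called of the Sm proteins (SNRPD1, 0.27), p53 targets (GDF15, -0.56), glycolysis enzymes (ENO2, -0.44), TGF-beta and BMP genes (BAMBI, -0.50) and cholesterol synthesis (LSS, 0.37), and of the redox genes GCLM (0.26) beside SOD2. The interferon, inflammatory, receptor tyrosine kinase, AP-1, GPI anchor, serine and stress response, mitochondrial carrier, retinoid, histone and cytosolic ribosomal protein lists held no gene called by edgeR's quasi-likelihood test in either set. With 12 libraries 3 to 9 genes of each had an unadjusted p under 0.05 and DESeq2 and limma voom called none, while with 11 libraries 3 to 15 had one, DESeq2 called 1 gene each of the AP-1, interferon and serine lists and limma voom 1 each of the AP-1, inflammatory and interferon lists. The robust fit with 12 libraries called 1 AP-1 and 1 serine gene, and edgeR's likelihood ratio test with 11 called 2 serine genes and 1 each of the AP-1, GPI anchor, inflammatory, interferon and retinoid lists. With 11 libraries interactions were positive for 33 of the 37 replication and mitosis genes and 20 of 23 cholesterol synthesis genes. They were negative for 14 of 19 histone genes. Of the 46 cytosolic ribosomal protein genes 31 interactions were positive with 12 libraries, but 12 with library sizes alone, so this list has no settled direction.

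**Figure D3:**
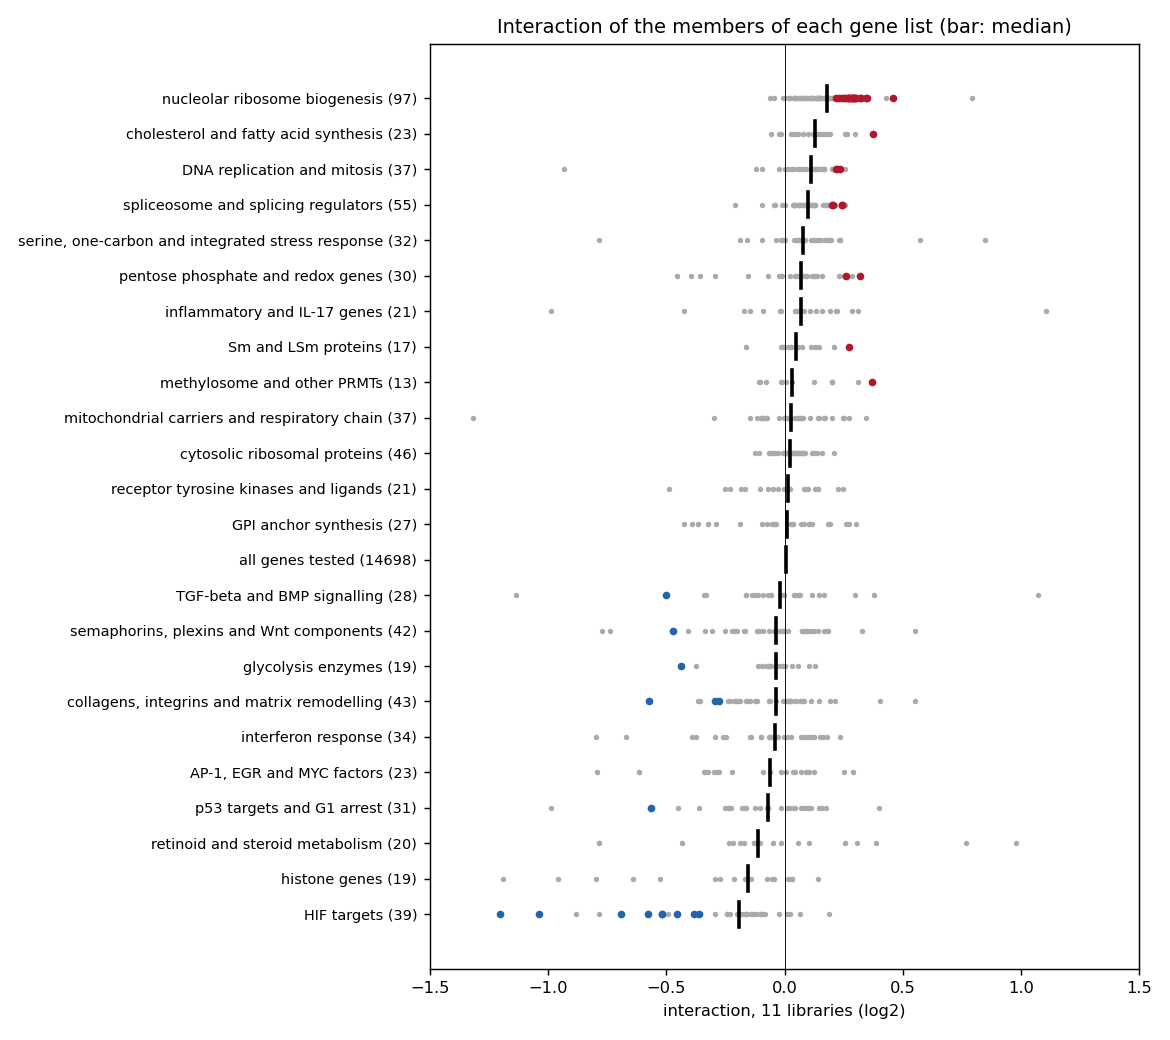
Interaction with 11 libraries (x axis, log2) of every measured member of each gene list (y axis, number of genes in brackets), with blue and red points for genes called lower and higher, grey points for the others and a black bar at the list's median; 1 gene lies outside the axis. The nucleolar list lies to the right of 0 with a median of 0.18, and the HIF targets lie to the left with a median of -0.19. The histone (-0.16) and retinoid (-0.11) lists also lie to the left. Those of cholesterol synthesis (0.13), DNA replication and mitosis (0.11) and splicing (0.10) lie to the right. The medians of the other lists run from -0.07 to 0.08, around that of all genes, 0.01.

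Reversed effects were rare on the log2 scale. Of 6323 genes called for onametostat at both oxygen levels, 23 had opposite signs (0.364%), and 9 of these were called for the interaction. With 11 libraries 26 of 6607 had opposite signs (0.394%) and 17 were called for the interaction. Of 1325 genes called for hypoxia with both treatments, 13 had opposite signs (0.981%), 10 of them called for the interaction, and with 11 libraries 19 of 1573 had (1.21%), all 19 called. The 10 were NDRG1, LMNA, HOTAIR, TP53I11 and TTC30B, which hypoxia lowered with onametostat and raised with DMSO, and ATIC, HJURP, SOD2, NPTX1 and PITX1, for which it was the other way round. In none of these pairs were both effects above 1 in absolute log2 value, so every reversal held at least 1 effect under 2-fold. NDRG1 and LMNA were reversed in both views, LMNA with an onametostat effect of -0.31 in hypoxia and 0.35 in normoxia and a hypoxia effect of -0.30 with onametostat and 0.36 with DMSO.

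Large onametostat effects were mostly alike at both oxygen levels. The average onametostat effect was called at an adjusted p under 0.05 with a change of over 1 log2 unit for 941 genes (6.4%). Between oxygen levels 712 of them (75.7%) were additive, meaning effects of the same sign within 1.5-fold of each other, 65 (6.91%) were dampened in hypoxia by over 1.5-fold, 160 (17.0%) were amplified and 4 (0.425%) reversed. With 11 libraries the classes held 709, 65, 152 and 2 of 928 genes. These classes come from the estimates and not from a test: only BMF and HOTAIR, both amplified, were called for the interaction with 12 libraries. With 11 libraries 7 genes were, namely BMF, HOTAIR, ITGA8, RRM2, DYNC1I1, CALCOCO1 and TP53INP2. Of these 7, 3 were in the amplified class and 4 in the additive class. A gene called for an interaction smaller than the 1.5-fold bound is thus still classed as additive. The median standard error of the interaction was 0.31 in additive genes, 0.51 in dampened and 0.56 in amplified ones, and where log2 CPM averaged 1 or more there were 412 additive, 8 dampened, 25 amplified and 2 reversed. The 95% interval lay within 1 log2 unit of 0 for 413 of the 941 genes, and all 413 were in the additive class.

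Among the additive genes with the largest effects were the noncoding RNAs LINC02593, ARNT2-DT and PSMG3-AS1. LINC02593 (chr1:916865-921016) had 2.51, 1.73 and 0 CPM with onametostat in hypoxia, against 21.8, 25.0 and 25.6 CPM with DMSO in hypoxia, and 2.16, 1.75 and 1.95 CPM with onametostat in normoxia, against 16.1, 16.4 and 22.3 CPM with DMSO in normoxia. Its effect was -3.43 ± 0.20 in hypoxia and -3.25 ± 0.15 in normoxia, and the interval of the interaction ran from -0.80 to 0.44. PSMG3-AS1 changed by -3.11 and -2.90, with an interval from -0.87 to 0.45. At these low levels the intervals leave room for an interaction of that size in either direction. Among dampened genes, CRYL1, an enzyme of the uronate cycle, changed by -2.11 in hypoxia and -2.69 in normoxia, and H2BC21, a histone gene, by 1.93 and 2.7, with interactions of 0.59 ± 0.31 (adjusted p = 0.467) and -0.78 ± 0.22 (adjusted p = 0.13) that were not called. RAB26, a vesicle GTPase, was in the amplified class with -3.09 and -2.47, and its interaction of -0.63 ± 0.41 was not called either (adjusted p = 0.551).

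**Figure D4:**
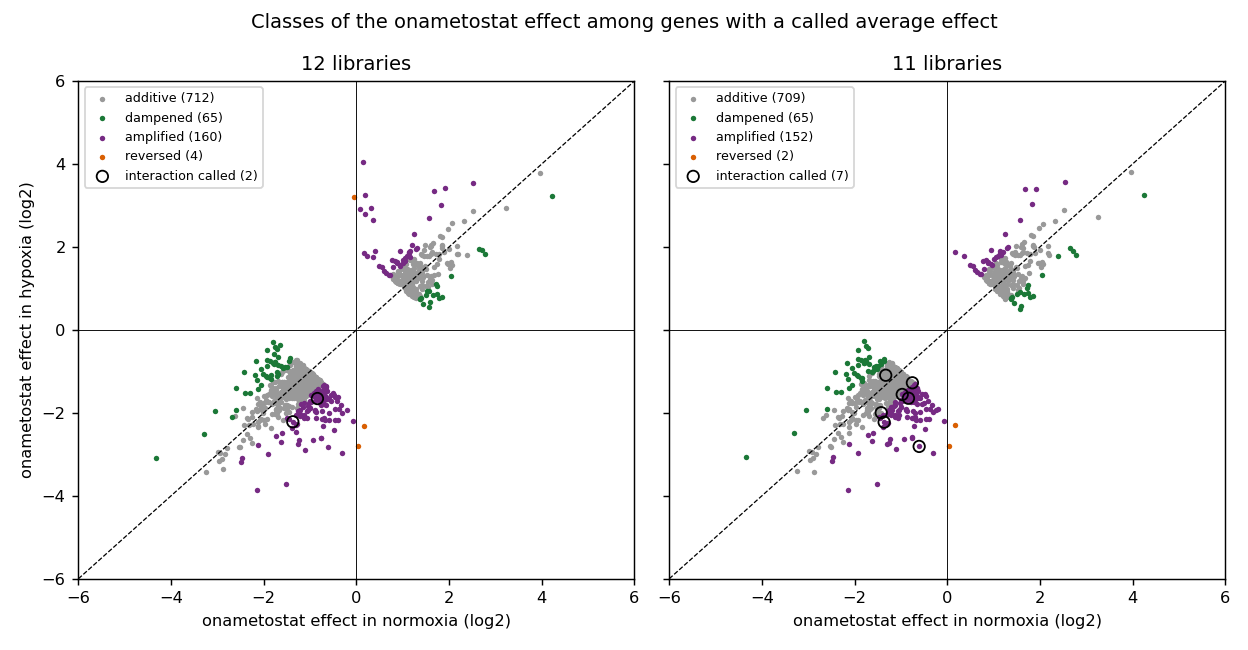
Onametostat effect in hypoxia (y axis, log2) against onametostat effect in normoxia (x axis, log2) for the genes with a called average effect, 941 with 12 libraries on the left and 928 with 11 on the right, coloured by class. The dashed line marks equal effects, open circles mark genes called for the interaction, and 2 genes on the left and 1 on the right lie outside the axes. The 712 additive genes on the left form a band along the dashed line, and 2 genes there and 7 on the right are circled.

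Some of the amplified and reversed estimates rested on experiment 3 of onametostat in hypoxia. Of the 160 amplified genes 8, and of the 4 reversed genes 2, were among its 53 genes in excess. ZBTB7A, a transcriptional repressor, had 75.7, 69.9 and 4238 CPM with onametostat in hypoxia, against 65.9, 64.5 and 65.2 CPM with DMSO in hypoxia. Its onametostat effect in hypoxia of 4.04 gave an interaction of 3.89 ± 1.37 (adjusted p = 0.227) with 12 libraries, against 0.02 ± 0.07 with 11. The pseudogene RPL4P5 had 1.88, 0.930 and 22603 CPM with onametostat in hypoxia and an interaction of 12.09 with 12 libraries, against -0.09 with 11, and SBF1 had 3.25 and 0.07. None of the 53 was among the genes called for the interaction in either set.

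Large hypoxia effects were few. The average hypoxia effect passed for 96 genes (0.653%), of which 43 were additive, 10 dampened with onametostat, 40 amplified and 3 reversed, and 9 of the amplified and reversed ones were in excess in that library. With 11 libraries 86 genes passed, 41 additive, 8 dampened, 36 amplified and 1 reversed. None was called for the interaction by edgeR's quasi-likelihood test, DESeq2 or limma voom in either set, edgeR's likelihood ratio test called 2 with 12 libraries and 1 with 11, and 22 had an unadjusted p under 0.05 in the quasi-likelihood test with 12 libraries and 14 with 11. The additive genes with the largest effects included SELENOP, ADAMTS5, RARRES1 and PSD4. SELENOP, a selenium carrier, had 10.8, 10.5 and 16.1 CPM with onametostat in hypoxia and 3.82, 5.89 and 4.55 CPM with onametostat in normoxia, against 17.9, 17.6 and 21.9 CPM with DMSO in hypoxia and 7.96, 5.45 and 6.81 CPM with DMSO in normoxia. Hypoxia raised it by 1.12 ± 0.19 with onametostat and 1.54 ± 0.13 with DMSO. ADAMTS5, an aggrecan-cleaving protease, rose by 1.46 and 1.37, and RARRES1, a retinoid-induced gene, by 1.24 and 1.33.

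How many genes were called depended on the library set. All 73 genes called with 12 libraries were called with 11 in the same direction, which is 100% of the 73 and 39.9% of the 183, and all 183 had the same sign and an unadjusted p under 0.05 with 12. Leaving out other libraries one at a time from the 12 gave 2 calls without experiment 1 of onametostat in hypoxia, 45 without experiment 2, 68, 20 and 4 without experiments 1, 2 and 3 of DMSO in hypoxia, 2, 7 and 38 without those of onametostat in normoxia, and 1, 2 and 4 without those of DMSO in normoxia. From the 11 libraries it gave 22 and 106 without experiments 1 and 2 of onametostat in hypoxia, 345, 145 and 94 without those of DMSO in hypoxia, 134, 123 and 161 without those of onametostat in normoxia, and 83, 27 and 99 without those of DMSO in normoxia. The direction of the 73 and of the 183 genes was the same in each of these fits. These genes were chosen for their interactions in the same libraries, so a change of direction was unlikely and its absence adds no evidence. Of the called genes described here NDRG1 alone was called under all 21 alternatives to the 12-library fit. IGFBP4 was called under 19, STC1 under 16, BMF and ITGB5 under 9, MTAP under 8, ZWILCH under 6 and PGK1P1 under 5 of the 19 in which it was tested.

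**Figure D5:**
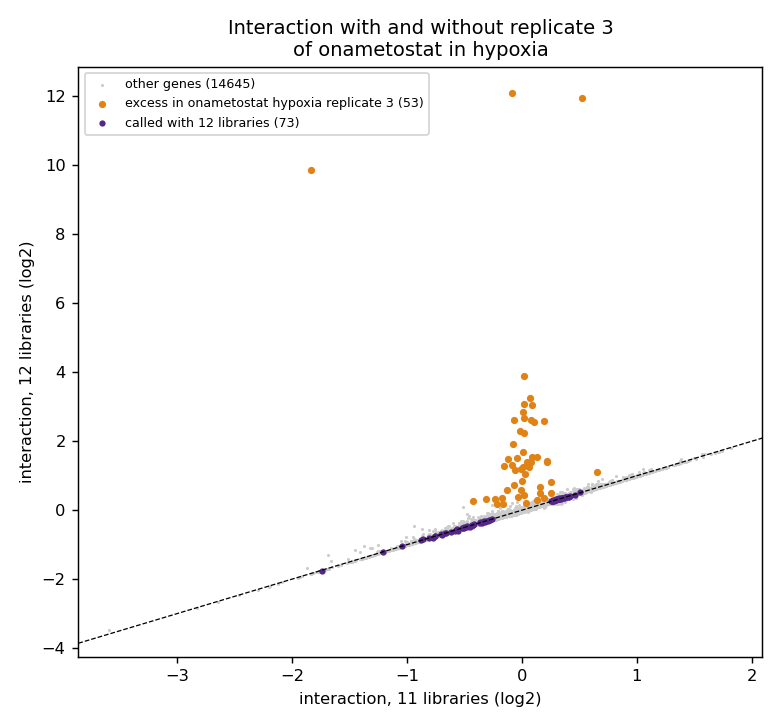
Interaction with 12 libraries (y axis, log2) against interaction with 11 libraries (x axis, log2), without experiment 3 of onametostat in hypoxia. Grey points are genes, orange points the 53 genes in excess in that library, purple points the 73 genes called with 12 libraries and the dashed line marks equal values. The purple points lie on the dashed line, while orange points reach up to 12.09 with 12 libraries (RPL4P5).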

How the data were processed

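T98-G cells were measured by RNA sequencing of polyadenylated RNA in 12 libraries, and the authors deposited whole-number read counts per gene that are not normalized. Reads were trimmed with fastp, aligned with STAR (2.7.10a in the submitters' processing notes, which name GRCh37 where the study's methods name GRCh38) and counted by the authors with featureCounts, with no strand setting named, so reads of antisense partners are counted together. The deposited table has 14698 genes, already filtered by the authors for low counts with filterByExpr, and all 12 columns were used (0 left out). Coordinates are those of GENCODE 44 on GRCh38 (14691 IDs had a symbol).

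Counts were fitted in edgeR 4.0.16 (R 4.3.3) with TMM factors, 1 mean per condition and a quasi-likelihood test, with Benjamini-Hochberg adjustment over all genes. This version raises p to a Poisson bound in 1928 genes, of which 0 were called for the interaction. Standard errors and intervals were taken from the estimate and its F statistic and do not hold this bound. Single effects described as changes of large size needed an adjusted p under 0.05 with a change of over 1 log2 unit, and the interaction and all other calls an adjusted p under 0.05 alone. Classes compare the absolute effects, with a bound of 1.5-fold. Alternatives were RLE factors, library sizes alone, a likelihood ratio test, a robust fit, DESeq2 1.42.0, limma 3.58.1 (voom with sample weights), a filter at an average log2 CPM of 1, filterByExpr again, the experiment number as a block, and each library left out. The second use of filterByExpr kept all 14698 genes and repeats the main fit. Every count of alternatives under which a gene was called includes it. Scripts were tested on simulated data.

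The genes described were those called with 12 or 11 libraries, those with the largest interactions, up to 4 per class and list, PRMT5 and MTAP, and some that the rule allows are left out for length. The members and the 22 gene lists were chosen with earlier results of these data known, and the nucleolar list, the patterns of called genes and the lists under each alternative were added after the calls were seen. The results of 2 genes are not reported here. Promoters are from RefSeq.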

Additional observations from a re-analysis of the deposited data

Results flagged for a closer look

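The onametostat effect differed between hypoxia and normoxia by edgeR's interaction test with 12 libraries in 26 described genes in which it was lower in hypoxia and 27 in which it was higher, each at an adjusted p under 0.05. Lower in hypoxia, with the difference of the log2 effects in brackets, were PGK1P1 (-1.75), DEPP1 (-1.22), PPP1R3C (-1.03), BMF (-0.84), HOTAIR (-0.81), SGK1 (-0.81), IL2RB (-0.75), NDRG1 (-0.71), LMNA (-0.66), TCAF2 (-0.65), IGFBP3 (-0.61), SLC2A3 (-0.57), HEY1 (-0.56), STC1 (-0.51), SH3PXD2A (-0.50), DDIT4 (-0.50), MT2A (-0.48), SEMA4B (-0.48), IGFBP4 (-0.46), TP53I11 (-0.42), C4orf3 (-0.42), PLIN2 (-0.40), CCN4 (-0.34), ANTXR1 (-0.33), LAMB1 (-0.30) and ITGB5 (-0.27). Higher in hypoxia were DIO2 (0.52), CEMIP (0.44), CLUH (0.40), CAPN15 (0.40), NPTX1 (0.39), DDX39A (0.39), THRAP3 (0.38), ATIC (0.37), SLC19A1 (0.36), MTAP (0.36), ATP5F1D (0.35), RRS1 (0.35), POLR1E (0.34), WDR43 (0.34), CTPS1 (0.34), RBM28 (0.33), SOD2 (0.33), E2F3 (0.33), HJURP (0.32), DDX21 (0.31), NOL6 (0.30), GRWD1 (0.29), MRTO4 (0.29), ZWILCH (0.29), NOLC1 (0.27), RRP1 (0.26) and CHERP (0.26). The rank of a gene by size is not its rank by certainty, since the largest differences belong to genes of low level such as PGK1P1, DEPP1 and PPP1R3C, and the smallest p to NDRG1.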

How the results depend on the processing

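With 12 libraries the interaction was called in 73 genes, and in 3 with an absolute log2 value above 1, 126 with DESeq2, 151 with the likelihood ratio test, 181 with limma voom, 163 with the robust fit, 49 with library sizes alone, 72 with RLE factors, 91 where log2 CPM averaged 1 or more, and 1 to 183 with each library left out. With 11 libraries it was called in 183, and in 5 above 1, 357 with the likelihood ratio test, 264 with DESeq2, 235 with limma voom, 259 with the robust fit, and 22 to 345 with a further library left out. All 73 and all 183 kept their direction in every alternative in which they were tested (the filter at an average log2 CPM of 1 tests 72 and 181 of them). Their choice by interactions in the same libraries made this likely beforehand. With the experiment number as a replicate block 83 genes were called with 12 libraries and 245 with 11, of which 59 and 173 were among the calls without it. With the block 9 HIF targets were called lower with 12 libraries and 13 with 11, and 8 and 24 nucleolar genes were called higher. Of 18 correlations between equally numbered libraries 0 were over 0.1, with a range of -0.0767 to 0.0752. With 3 libraries per condition these correlations cannot decide whether libraries of 1 experiment share effects. The main fit held no term for the experiment.

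Refitted on genes with an average log2 CPM of 1 or more, and so on fewer genes, the average onametostat effect was called in 454 genes (941 without this filter), the average hypoxia effect in 27 (96), the onametostat effect in hypoxia in 531 (1104), the onametostat effect in normoxia in 415 (898), the hypoxia effect with onametostat in 38 (107) and the hypoxia effect with DMSO in 33 (122). DESeq2 gave 33 for the average hypoxia effect, 18 for hypoxia with onametostat and 49 for hypoxia with DMSO, and the cause was not tested. Leaving out libraries gave 911 to 1033, 86 to 128, 897 to 1142, 891 to 980, 54 (without experiment 1 of onametostat in hypoxia) to 126, and 104 to 152 genes for these 6 effects in the order above. Of the classes of the onametostat effect, 412 additive, 8 dampened, 25 amplified and 2 reversed genes averaged a log2 CPM of 1 or more, a bound of 2-fold gave 20 dampened and 64 amplified, and 2 were reversed without experiment 3 of onametostat in hypoxia and 2 with the replicate block. Of those of the hypoxia effect, 18 additive, 0 dampened and 8 amplified genes did, a bound of 2-fold gave 67 additive, 5 dampened and 21 amplified, and 1 was reversed without that library.

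Of 2410 values of 116 genes under the alternatives, 1747 kept direction and call, 510 lost the call, 145 gained it and 8 turned, all with a library left out and none in a called gene. Over all alternatives, the interaction ranged from -0.0865 to 12.68 for RPL4P5, from -1.14 to 0.144 for RAB26, from -0.0646 to 0.48 for ADAMTS5 and from -0.17 to 0.00743 for RARRES1. The 403279 counts of experiment 3 of onametostat in hypoxia limit the 12-library values of genes of low level.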
